A study of Mus musculus with 21 samples.

Results

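The genes described here are Mpo, Elane, Prtn3, Ctsg, Lyz2, Serpinb1a and Ms4a3, which encode proteins of the primary (azurophil) granules of neutrophils and other products of the promyelocyte, the stage at which these granules are made. They were chosen by symbol, and all 7 were found among the 13380 genes listed in both deposited tables of hematopoietic stem cells (HSC). The study followed mice of the genotype MMTV-PyMT, in which a mammary tumour virus promoter drives the polyoma middle T oncogene and mammary tumours form, and compared sedentary with physically active animals. Of its 21 RNA samples, 9 were freshly sorted HSC in 3 groups of 3, and all 9 came from this genotype. Sedentary HSC were taken at week 12 from sedentary mice, and active HSC at week 12 from physically active mice. The transplant HSC were taken at week 14 from sedentary mice that had received cells of active mice, so week and transplantation differ together in every comparison with them. The activity of the donor mice is a further difference from sedentary HSC, and that of the recipient mice one from active HSC. The labels call the 3 samples of a group biological replicates, and name neither the sort gate nor the animals or pools behind a sample, nor which cells were transplanted. The p-values therefore measure the spread between these samples.

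Primary granules form first in neutrophil development, in the promyelocyte, and are loaded with myeloperoxidase and a set of serine proteases. Their genes are switched on by transcription factors of the C/EBP, PU.1, RUNX and MYB families in granulocyte-monocyte progenitors, and are switched off again as specific granules form. Stem cells are the source of this lineage, and low levels of such transcripts are known in early multipotent progenitors. Mpo encodes myeloperoxidase, which makes hypochlorous acid from hydrogen peroxide and chloride. Elane, Prtn3 and Ctsg encode the serine proteases neutrophil elastase, proteinase 3 and cathepsin G. Lyz2 encodes lysozyme, which cleaves bacterial cell walls and is also made by monocytes and macrophages. Serpinb1a encodes a cytoplasmic inhibitor of elastase, proteinase 3 and cathepsin G, and Ms4a3 encodes a membrane protein used as a marker of granulocyte-monocyte progenitors.

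In the GENCODE M21 annotation of GRCm38, Prtn3 (chr10:79874476-79883174, plus strand) and Elane (chr10:79886247-79888215, plus strand) are neighbours with 3072 bases between them. Lyz2 lies on the same chromosome (chr10:117277331-117282321, minus strand). Mpo lies at chr11:87793581-87804413 on the plus strand, and Ctsg at chr14:56099881-56102574 on the minus strand. Serpinb1a lies at chr13:32842092-32851185 and Ms4a3 at chr19:11629496-11640851, both on the minus strand. Promoter entries of RefSeq on GRCm38.p6 matched 6 of the 7 genes. Those of Mpo and of the 3 proteases are shown because these genes encode the main enzymes of 1 granule and hold a common motif. Each run ends just before the first annotated exon base, so that only 47 bases remained for Mpo at chr11:87793534-87793580. The others are Elane at chr10:79886062-79886246, Prtn3 at chr10:79879417-79879613 and Ctsg at chr14:56102575-56102824. The Prtn3 run lies inside the span of the GENCODE gene, which has an exon further upstream. Capitals mark matches to the motifs named after the sequences.
Mpo: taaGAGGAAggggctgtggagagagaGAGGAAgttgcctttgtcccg
Elane: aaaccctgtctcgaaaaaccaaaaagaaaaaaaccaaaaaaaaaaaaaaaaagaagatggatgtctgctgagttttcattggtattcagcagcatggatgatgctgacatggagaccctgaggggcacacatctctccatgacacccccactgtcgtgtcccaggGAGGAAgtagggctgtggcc
Prtn3: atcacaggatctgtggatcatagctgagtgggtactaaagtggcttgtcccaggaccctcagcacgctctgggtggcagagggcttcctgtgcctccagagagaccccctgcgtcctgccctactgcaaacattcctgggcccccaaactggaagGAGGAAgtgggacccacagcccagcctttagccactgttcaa
Ctsg: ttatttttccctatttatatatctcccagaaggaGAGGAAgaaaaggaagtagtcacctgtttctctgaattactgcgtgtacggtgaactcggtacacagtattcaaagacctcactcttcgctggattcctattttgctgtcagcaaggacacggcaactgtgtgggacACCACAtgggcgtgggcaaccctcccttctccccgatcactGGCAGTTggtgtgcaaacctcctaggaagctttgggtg
The search covered the 250 bases before each RefSeq start on both strands. The PU.1 motif GAGGAA was found in 4 of 6 members, against 23.3% of the 32851 RefSeq promoters searched in the same way. It began 247 and 224 bases before the start of Mpo, 85 before that of Elane, 95 before that of Prtn3 and 216 before that of Ctsg. In all 4 genes it is read on the strand as printed. The RUNX motif TGTGGT was found in 2 of 6, Ctsg and Lyz2, against 14.05% of all promoters, and stands as ACCACA in the Ctsg run. The MYB motif AACNGNC was found in 3 of 6, Mpo, Elane and Ctsg, against 27.7%, and of these matches that of Ctsg falls in the printed run. No match to the C/EBP motif TTGCNNAA was found in the 6 windows, against 9.56% of all promoters. No motif overlapped another. A match of letters is a description and not evidence of binding.

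The deposited values were normalised read counts from which whole reads could be recovered. Replicates 1 and 2 of each group held 16406889 to 24574563 reads, and replicate 3 of each group, whose names in the tables also differ in style, held 58500940 to 72417315. Levels below are recovered reads of both tables, joined by symbol and scaled together, and are called normalised reads. Of 12 HSC marker genes, all 12 were listed and none was at 0 in any column, with summed levels of 13767 to 15140 in sedentary, 12006 and 16152 in active and 12381 to 14874 in transplant HSC. Kit, the stem cell factor receptor, was between 5135 and 7295 normalised reads in every column, whereas Procr, a marker of the most primitive cells, was between 31.2 and 120. These levels are not scaled for gene length. Single markers moved in both directions within the sums. Hoxa9 averaged 1789 ± 336 in sedentary and 559 ± 188 in transplant HSC, and Slamf1 49.1 ± 2.01 and 182 ± 105 (SD, n = 3 each). Active replicate 2, numbered 6 in the labels, stands in both tables under different column names, P3 (6) in the table of sedentary and active HSC and P2 (6) in the table of active and transplant HSC. Their recovered reads differed at 13086 of 13380 genes, whereas the other active columns differed between the tables at only 4 (Ubb, Rn45s, Lars2 and Gm1821). The columns numbered 6 cannot both be that library, and are kept apart below.

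Mpo was the most abundant of the 7 genes. It was at 68020, 52574 and 76296 normalised reads in sedentary HSC, 163896 and 99480 in active replicates 1 and 3, and 183544, 190022 and 241734 in transplant HSC. Each of these active libraries exceeded every sedentary one, and each transplant library exceeded both active ones. The group means were 65630 ± 12040 (SD, n = 3) in sedentary, 131688 ± 45549 (SD, n = 2) in active and 205100 ± 31891 (SD, n = 3) in transplant HSC.

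The serine proteases were ordered alike, with different spacing. Elane was at 5999, 4751 and 11767 normalised reads in sedentary HSC, 20180 and 13728 in the active replicates 1 and 3, and 40129, 42908 and 47896 in transplant HSC. The 3 sets of values did not overlap, and sedentary replicate 3, the deep library, was nearest to the active ones. Ctsg was at 15385, 10733 and 14990 in sedentary HSC, 25695 and 14545 in active replicates 1 and 3, and 35969, 34337 and 40070 in transplant HSC. Active replicate 3 lay inside the sedentary range, and all transplant values lay above the rest. Prtn3 was at 19482, 13877 and 16934 in sedentary, 30665 and 18471 in active, and 26559, 36536 and 45195 in transplant HSC. Here active replicate 1 exceeded transplant replicate 1, so active and transplant HSC overlapped, while sedentary and transplant HSC did not.

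Lyz2 varied most among replicates. Its normalised reads were 2117, 2189 and 5881 in sedentary HSC, 14195 and 5075 in active replicates 1 and 3, and 52070, 32385 and 14788 in transplant HSC. The transplant libraries differed by up to 3.52-fold among themselves, and the lowest of them was replicate 3, the library in which 5 of the other 6 genes were highest. Its coefficient of variation was 63.4% in sedentary and 56.4% in transplant HSC, against 10.8% to 49.9% for the other 6 genes in sedentary and 8.03% to 25.8% in transplant HSC. Elane was the one at 49.9%. Lyz1, a near copy of Lyz2, was named for that likeness after its values were seen. It was at 0 in each sedentary library and between 2.87 and 22.7 normalised reads in transplant HSC. How reads shared by these 2 genes were counted is not given in the sources used here.

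Serpinb1a, the inhibitor, and Ms4a3 had the smallest folds between transplant and sedentary HSC. Serpinb1a was at 8407, 6836 and 8137 normalised reads in sedentary HSC, 9270 and 8164 in active replicates 1 and 3, and 12251, 12817 and 14397 in transplant HSC. Its transplant values lay above all others, and active replicate 3 lay inside the sedentary range. Its close paralogs Serpinb1b and Serpinb1c were not analysed here, and how reads shared with them were counted is not given in the sources used here. Ms4a3 was at 11333, 8577 and 8331 in sedentary, 13995 and 8449 in active, and 15746, 19114 and 18157 in transplant HSC. Its active replicate 3 also lay inside the sedentary range, and the transplant values lay above all others. Over the 7 genes, active replicate 1 exceeded every sedentary library for 7, whereas active replicate 3 lay within the sedentary range for 5 and above it for 2, Mpo and Elane. The genes together took 0.422 ± 0.0724% (SD, n = 3) of the joined reads of sedentary libraries, 0.756 ± 0.267% (SD, n = 2) of active and 1.31 ± 0.0961% (SD, n = 3) of transplant libraries.

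**Figure D1:**
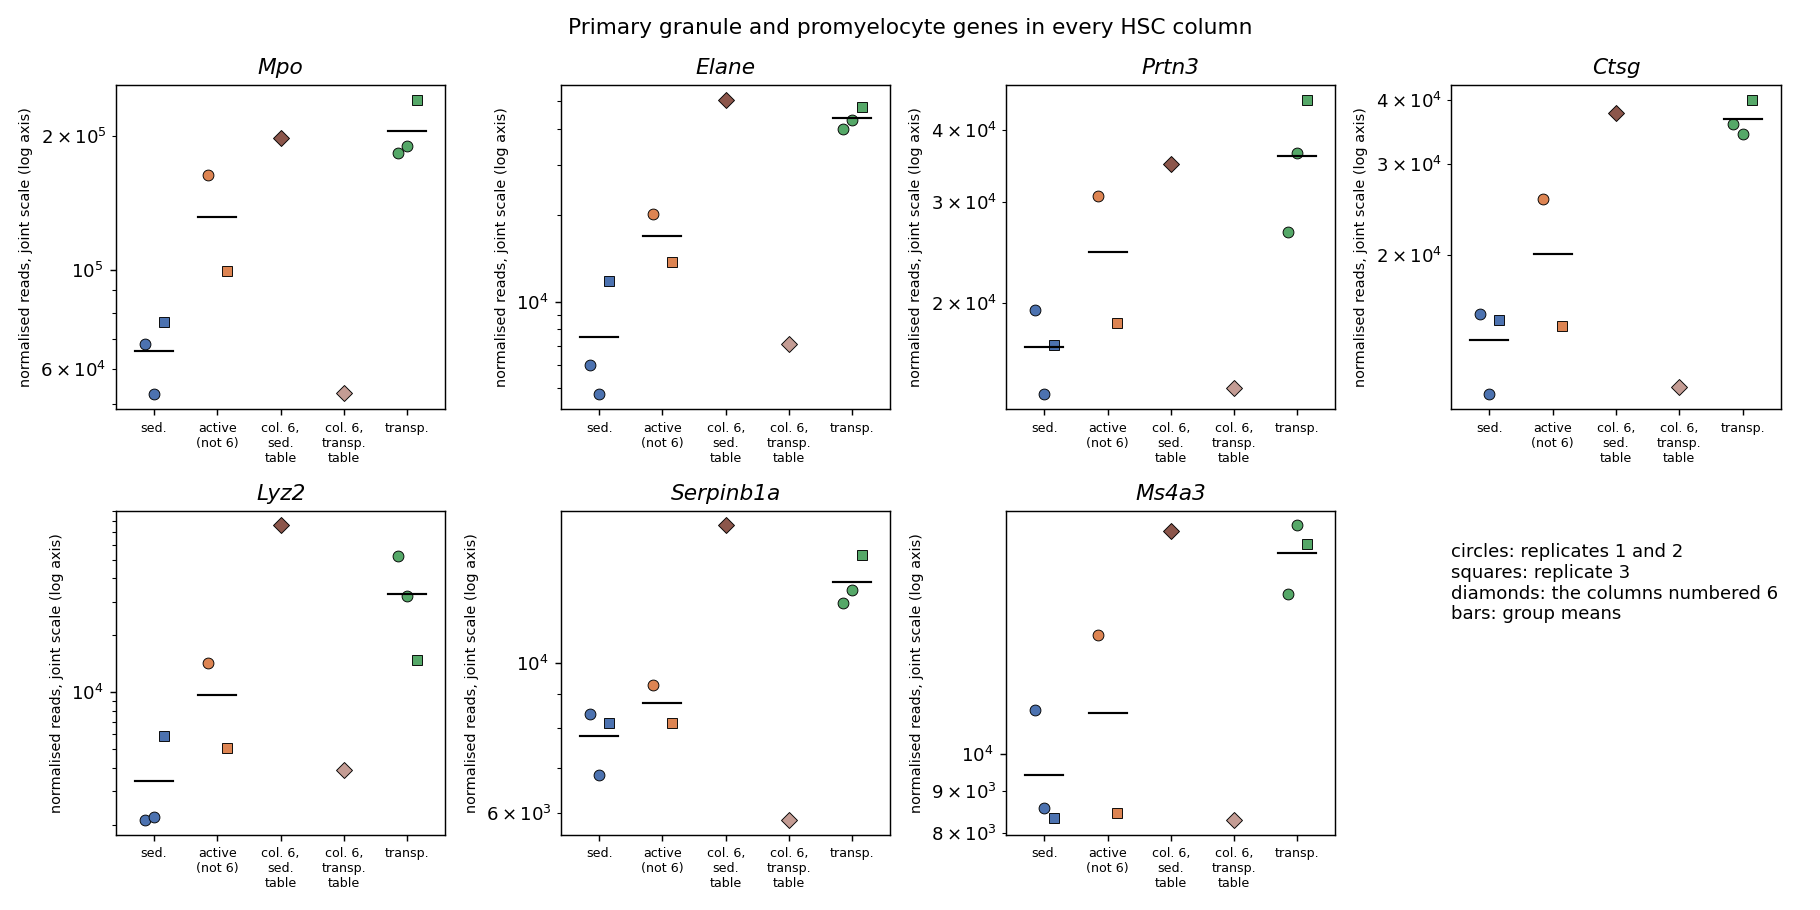
Normalised reads on the joint scale (log axis, its range set per panel) of each of the 7 genes in every HSC column, with sedentary, active and transplant libraries as circles (replicates 1 and 2) or squares (replicate 3), the columns numbered 6 as diamonds and group means as bars. Transplant values lie above sedentary ones in all 7 panels, and the columns numbered 6 lie 2.27-fold to 19.6-fold apart.

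The comparison that no column numbered 6 enters is transplant against sedentary HSC. All 7 genes rose. Lyz2 rose most, 9.70-fold, followed by Elane at 6.26-fold, Mpo at 3.14-fold, Ctsg at 2.71-fold, Prtn3 at 2.12-fold, Ms4a3 at 1.89-fold and Serpinb1a at 1.69-fold. These folds are on the log2(value + 1) scale, and in bulk RNA a larger share of cells with these transcripts and more transcript per cell cannot be told apart. The log2 fold change of Mpo was 1.65 ± 0.19 (SE) with a limma adjusted p of 0.0113, and that of Elane was 2.65 ± 0.34 (SE) with a limma adjusted p of 0.0147. For Ctsg it was 1.44 ± 0.18 (SE), with a limma adjusted p of 0.0127. Prtn3 was the least certain, at 1.09 ± 0.24 (SE) and a limma adjusted p of 0.0427. Lyz2 had the widest 95% confidence interval, 1.79 to 4.76 around 3.28, with a limma adjusted p of 0.0286, and Serpinb1a the narrowest, 0.43 to 1.09 around 0.76, with a limma adjusted p of 0.0261. Ms4a3 changed by 0.92 ± 0.17 (SE), with a limma adjusted p of 0.0276.

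The limma test thus called 7 of 7 genes higher in transplant HSC, where 7.94% of the 13329 genes tested were called higher, and groups did not overlap for 7 of 7, against 20.3% of all genes. Both edgeR and DESeq2 on recovered reads also called 7, where no alternative fit called more than 3181 of all genes. The median log2 fold change was 1.44 over the 7 genes and -0.00046 over all genes tested. The calls changed when 1 library was left out, which also leaves only 2 libraries in 1 group. Over all genes the limma count then ran from 236 to 1674. Of the 7 genes limma called 3 without sedentary replicate 1, 3 without sedentary replicate 2 and 4 without transplant replicate 1. It called 1 (Mpo) without transplant replicate 2, and 5 without either replicate 3. Replicates 1 and 2 alone gave 4 calls, a term for replicate 3 gave 5, and a replicate block gave 0. Over all the alternative fits the count of all genes ran from 95 to 3181. In the exact permutation test, two-sided, each of the 7 genes reached 0.10, the smallest p that 3 against 3 allows.

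Active HSC had higher mean levels of all 7 genes than sedentary HSC, but no gene passed the test. With the column numbered 6 of their own table, the log2 fold change of Mpo was 1.19 (95% confidence interval 0.44 to 1.94) and that of Elane was 1.80 (0.36 to 3.23). For Lyz2 it was 2.55 (-0.02 to 5.12), for Ctsg 0.84, for Prtn3 0.70, for Ms4a3 0.49 and for Serpinb1a 0.46. The limma adjusted p was between 0.475 and 0.525 for the 7 genes, and limma called 0% of the 13513 genes higher. At an unadjusted p under 0.05 limma gave 2 of 7, Mpo and Elane, against 6.7% of all genes. The same 2 were the members whose groups did not overlap, against 10.4% of all genes. On recovered reads edgeR called 0 of the 7 and DESeq2 called 1, Mpo, where no alternative fit called more than 257 of all genes. In the authors' deposited table, Mpo alone of the 7 had an adjusted p under 0.05, against 1.6% of all genes called higher there, with a log2 fold change of 1.23 and an adjusted p of 0.00363.

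These values depended on the column numbered 6. With the column of the other table in its place, the log2 fold change was 0.55 for Mpo, 0.85 for Elane, 0.27 for Prtn3, 0.25 for Ctsg, 1.12 for Lyz2, 0.09 for Ms4a3 and -0.02 for Serpinb1a, which changed sign, and no limma adjusted p was below 0.947. Without any column numbered 6 the values were 0.97 for Mpo, 1.26 for Elane and 1.49 for Lyz2. The intervals of the difference for Prtn3, Ctsg, Lyz2, Ms4a3 and Serpinb1a held 0, and their upper ends ran from 1.15 for Serpinb1a to 5.12 for Lyz2, so these libraries allow differences of up to those sizes.

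Transplant HSC, set against active HSC of the table that holds both, had higher means of all 7 genes, and again no gene passed the limma threshold. Elane had a log2 fold change of 1.79 (95% confidence interval 0.84 to 2.75), Lyz2 of 2.16 (0.53 to 3.78), Ctsg of 1.19 (0.40 to 1.98) and Mpo of 1.09 (0.05 to 2.13). Values for Ms4a3, Prtn3 and Serpinb1a were 0.82, 0.81 and 0.78. The limma adjusted p lay between 0.173 and 0.295, and 0 of 7 were called, against 0.00734% of the 13633 genes called higher. At an unadjusted p under 0.05 limma gave 6 of 7, all but Prtn3, against 10.5% of all genes. Groups did not overlap for the same 6, against 13.1% of all genes. On recovered reads edgeR called 0 and DESeq2 called 5, where no alternative fit called more than 1107 of all genes.

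In the authors' deposited table of this comparison 5 of 7 had an adjusted p under 0.05, against 5.38% of all genes called higher there. The authors' deposited table gave Elane a log2 fold change of 1.67 with an adjusted p of 1.25e-05, and Ctsg one of 1.10 with 0.00218. Serpinb1a, Ms4a3 and Mpo had 0.76, 0.78 and 0.96 in the authors' deposited table, and Prtn3 and Lyz2 did not pass there, with adjusted p of 0.0658 and 0.0791. With the other column numbered 6, the fitted log2 fold changes fell to 0.46 for Mpo, 0.85 for Elane, 0.38 for Prtn3, 0.60 for Ctsg, 0.73 for Lyz2, 0.43 for Ms4a3 and 0.30 for Serpinb1a. The 3 comparisons share libraries pairwise, so their values are given side by side and not as support for each other.

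**Figure D2:**
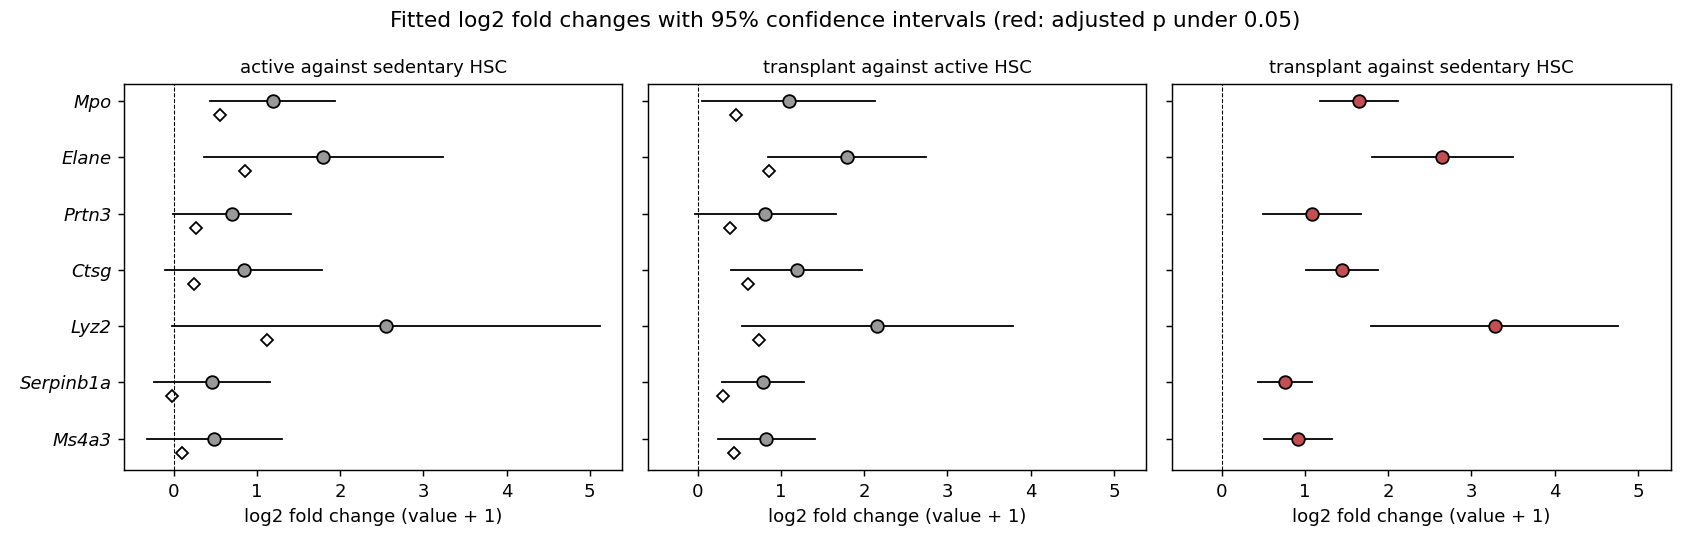
Fitted log2 fold changes on the log2(value + 1) scale (x axis) of the 7 genes (y axis) in 3 comparisons, with 95% confidence intervals as lines, red points for a limma adjusted p under 0.05, grey points otherwise and white diamonds for the same fit with the other column numbered 6. All 7 points are red in transplant against sedentary HSC, and every diamond lies left of its point.

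The columns numbered 6 sat at opposite ends of the range. P3 (6) of the sedentary and active table held 198639 normalised reads of Mpo, 50640 of Elane, 34876 of Prtn3, 37789 of Ctsg, 75895 of Lyz2, 15932 of Serpinb1a and 18795 of Ms4a3. It exceeded all sedentary libraries and both other active libraries for 7 of 7 genes. It lay within the range of the transplant libraries for 4 and above all of them for 3, Elane, Lyz2 and Serpinb1a. P2 (6) of the active and transplant table held 52887 of Mpo, 7096 of Elane, 14203 of Prtn3, 11067 of Ctsg, 3878 of Lyz2, 5866 of Serpinb1a and 8294 of Ms4a3. It was below both other active libraries and all transplant libraries for 7 of 7 genes, and within the sedentary range for 5, with Serpinb1a and Ms4a3 lower still. The fold between the columns ran from 2.27 for Ms4a3 to 19.6 for Lyz2. The sum of the 7 genes was 432565 in P3 (6) and 103290 in P2 (6), beside 99536 to 142335 in sedentary, 167911 and 277896 in active and 366267 to 422237 in transplant HSC.

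Per kilobase of exon, Mpo was first in every column. The length used counts all annotated exon bases of a gene, which need not match the transcripts made here. It was 1732 bases for Prtn3, 984 for Elane and 1033 for Ctsg. Orders and shares between genes depend on these lengths. Unscaled, the sedentary mean of Prtn3 (16764 normalised reads) was above that of Ctsg (13702). In the sedentary libraries Ctsg was second, ahead of Elane. In the transplant libraries Elane was second, ahead of Ctsg. Elane made up 12.2 ± 4.04% (SD, n = 3) of the summed level per kilobase of the 7 genes in sedentary and 22.1 ± 1.27% (SD, n = 3) in transplant HSC. The share of Ctsg was 21.9 ± 1.53% and 17.7 ± 0.608%, and that of Prtn3 was 16.1 ± 2.07% and 10.3 ± 2.35% (SD, n = 3 each), with no overlap of libraries for either. The share of Mpo was 31.6 ± 0.445% and 29.7 ± 3.29% (SD, n = 3 each), with overlapping ranges. That of Lyz2 was 4.11 ± 1.96% and 12.7 ± 7.34% (SD, n = 3 each), also overlapping. Shares are parts of 1 sum, and those of Ctsg and Prtn3 fell although the levels of both genes rose. Serpinb1a had the lowest level of the 7 in every active and transplant library.

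The ratio of each protease to its inhibitor Serpinb1a was taken within each library. Elane over Serpinb1a, per kilobase, was 1.67, 1.63 and 3.38 in sedentary HSC, 5.10 and 3.94 in active replicates 1 and 3, and 7.67, 7.84 and 7.79 in transplant HSC. The ratio was 7.44 in P3 (6) and 2.83 in P2 (6). Without the columns numbered 6 the 3 groups did not overlap. P3 (6) lay between active replicate 1 and the transplant libraries, whereas P2 (6) lay inside the sedentary range. Ctsg over Serpinb1a was 3.50 to 4.11 in sedentary, 6.18 and 3.97 in active replicates 1 and 3, and 5.97 to 6.55 in transplant HSC. Active replicate 1 thus lay inside the transplant range and active replicate 3 inside the sedentary one. Prtn3 over Serpinb1a overlapped, at 2.70 to 3.08 in sedentary, 4.40 and 3.01 in active replicates 1 and 3, and 2.88 to 4.17 in transplant HSC. Between the neighbours Elane and Prtn3 the ratio was 0.542, 0.603 and 1.22 in sedentary, 1.16 and 1.31 in active, and 2.66, 2.07 and 1.87 in transplant HSC, so sedentary replicate 3 reached the active values. Mpo over Ctsg was 1.33 to 1.54 in sedentary, 1.92 and 2.06 in active replicates 1 and 3, and 1.54 to 1.82 in transplant HSC. For this ratio active replicates 1 and 3, and not the transplant libraries, were highest. P3 (6), at 1.59, lay inside the transplant range, and P2 (6), at 1.44, inside the sedentary one. These ratios, of which 7 were computed, were not tested.

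**Figure D3:**
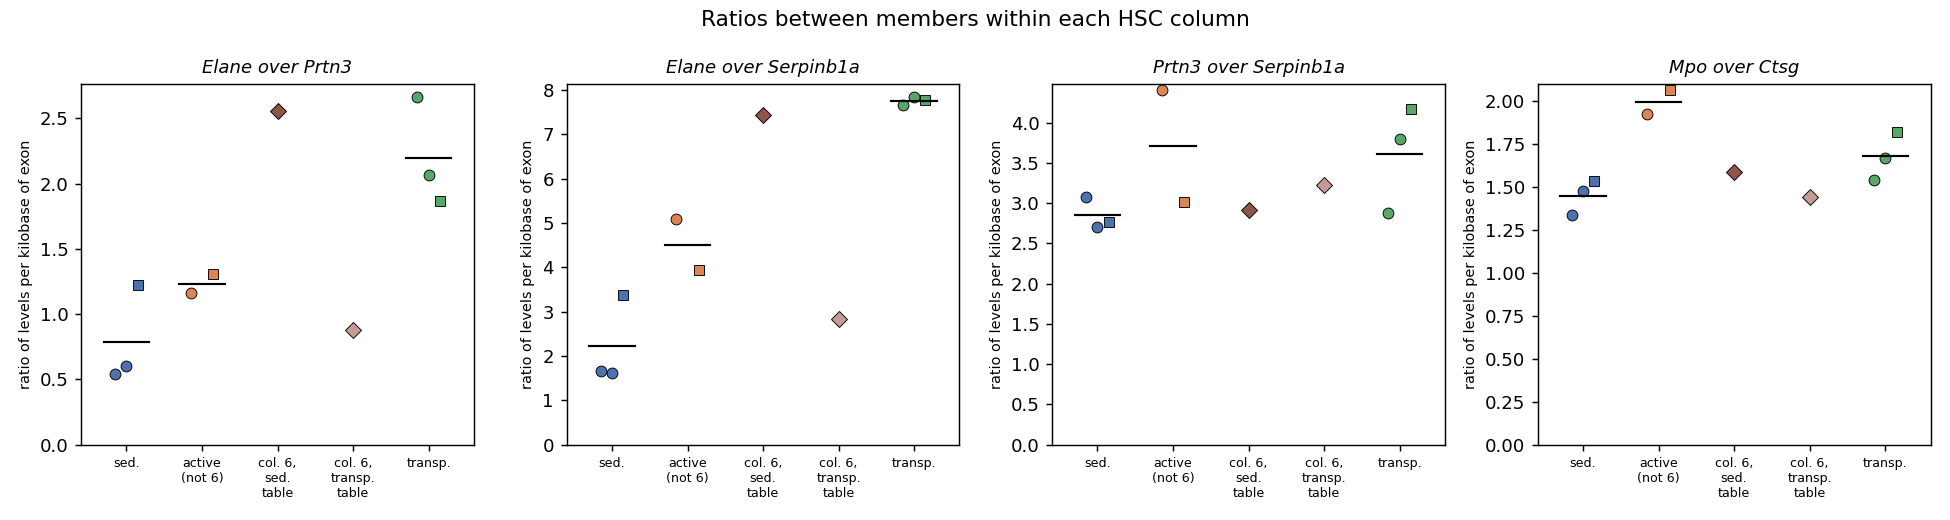
Ratios of levels per kilobase of exon (y axis, from 0) of Elane over Prtn3, Elane over Serpinb1a, Prtn3 over Serpinb1a and Mpo over Ctsg in every HSC column, drawn with circles for replicates 1 and 2, squares for replicate 3, diamonds for the columns numbered 6 and bars for group means. Elane over Serpinb1a is 7.67 to 7.84 in transplant and 1.63 to 3.38 in sedentary libraries.

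Other genes of the granule were grouped by role. In transplant against sedentary HSC limma called 4 of 16 tested packaging genes higher and 0 lower, where 7.94% of all genes were called higher, with a median log2 fold change of 0.42. Without sedentary replicate 1, sedentary replicate 2, transplant replicate 1 or transplant replicate 2 the count was 1 each, and without sedentary replicate 3 it was 2. On recovered reads edgeR called 8 and DESeq2 called 9, where no alternative fit called more than 3181 of all genes. Srgn, the proteoglycan core that holds proteases in granules, was at 13404, 10414 and 13313 normalised reads in sedentary and 36759, 35615 and 31917 in transplant HSC. Its log2 fold change was 1.497 with a limma adjusted p of 0.00908, and the groups did not overlap. Stxbp2 and Unc13d, which act in granule exocytosis, and Ap3s1, a subunit of the AP-3 adaptor, rose by 0.60, 0.50 and 0.70 on the log2 scale. Of 19 lysosomal hydrolases, which share the azurophil granule, 9 were called higher and 0 lower, with a median of 0.57. That count was 3 without sedentary replicate 1, sedentary replicate 2 or transplant replicate 2, 4 without transplant replicate 1, and 15 by edgeR and by DESeq2. Hexa, a subunit of beta-hexosaminidase, had a log2 fold change of 1.24, Arsb (arylsulfatase B) 1.59, Neu1 (a sialidase) 1.22 and Gla (alpha-galactosidase) 0.87. Of 10 tested protease inhibitors 3 were called higher, Cst7 with 0.79, Serpinb10 with 2.46 and Serpinb8 with 2.63, and 0 lower. The count was 0 without sedentary replicate 1 or 2 or transplant replicate 1 or 2, and edgeR and DESeq2 called 6 each.

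Among 18 regulators of granulopoiesis, 7 were called higher and 1 lower, with a median of 0.69. The 8 calls became 3 without sedentary replicate 1 or 2, 4 without transplant replicate 1 and 2 without transplant replicate 2. Irf8, which directs progenitors to monocytes and dendritic cells, was at 4112, 3934 and 3567 normalised reads in sedentary and 1165, 1512 and 1524 in transplant HSC. It fell by 1.47 on the log2 scale with a limma adjusted p of 0.00917, and 3.71% of all genes were called lower. Cebpe, a factor of late promyelocytes and myelocytes, went from 212, 165 and 375 to 3154, 2277 and 1595 normalised reads. Its log2 fold change was 3.25 with a limma adjusted p of 0.0120. Gfi1, a repressor needed for neutrophil development, rose by 1.52, Csf2ra, a receptor chain for GM-CSF, by 1.49 and Klf4, a factor of monocytes, by 1.11 on the log2 scale. Of 15 other promyelocyte and progenitor genes 11 were called higher and 2 lower, with a median of 1.57. These 13 calls became 7 without sedentary replicate 1 or 2 and 5 without transplant replicate 2. Fcnb, a ficolin of granulocytes, rose by 4.07, Ly6c2, a surface antigen of monocytes, by 3.16, Mgst1, a glutathione transferase, by 2.11 and Alas1, the first enzyme of heme synthesis, by 1.85. Flt3, a receptor of multipotent and lymphoid progenitors, was at 2382, 2700 and 2406 normalised reads in sedentary and 121, 81.2 and 259 in transplant HSC. Its log2 fold change was -4.18, and the other lower gene of that list was Cd34.

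In active against sedentary and in transplant against active HSC limma called 0 of the 96 tested genes of these 5 lists and of the specific and gelatinase granule list. At an unadjusted p under 0.05 limma gave 29 and 51 of them, against 1252 of 13513 and 2422 of 13633 genes in all. On recovered reads edgeR called 0 and 0 of them, and DESeq2 called 19 and 38. No alternative fit called more than 257 and 1107 of all genes. Without active replicate 1, limma called 1 packaging gene, 1 hydrolase, 2 other promyelocyte genes and 5 specific and gelatinase granule genes in transplant against active HSC. The active group of that fit was P2 (6) and replicate 3. No fit of this comparison with 1 library left out called more than 79 of all genes. The 2 genes with the smallest unadjusted p among the regulators were Cebpe with 2.31 and Irf4 with 0.60 in active against sedentary HSC, and Irf8 with -1.25 and Gfi1 with 1.17 in transplant against active HSC. Among packaging genes they were Lyst with 0.97 and Prss57 with 1.06, and Srgn with 1.21 and Unc13d with 0.43. Median log2 fold changes of active against sedentary HSC were 0.32 for packaging, 0.49 for hydrolases, 0.35 for inhibitors, 0.47 for regulators and 1.00 for the other promyelocyte genes, beside 0.84 for the 7 members and 0.0037 for all genes. In transplant against active HSC they were 0.26, 0.47, 0.66, 0.55 and 1.14, beside 1.09 for the members.

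Genes of the granules that form later were also higher. Of 18 specific and gelatinase granule genes 15 were called higher and 0 lower in transplant against sedentary HSC, with a median log2 fold change of 2.03. Of all genes tested there, 7.94% were called higher. The count was 10 without sedentary replicate 1, 9 without sedentary replicate 2 and 7 without transplant replicate 2. Ngp, neutrophilic granule protein, was at 83.8, 298 and 180 normalised reads in sedentary and 5678, 5045 and 5217 in transplant HSC. Chil3, Cd177, Lcn2 and Itgb2 had log2 fold changes of 4.92, 4.78, 2.94 and 1.58. Markers of mature neutrophils, 5 of whose 9 genes are also in that list, had summed levels of 3417 to 3948 normalised reads in sedentary, 5080 and 15897 in active and 29567 to 33452 in transplant HSC. In P3 (6) the sum was 122823 and in P2 (6) it was 3723. Of these 9 markers 8 were called higher, and Retnlg was at 0 in some columns. The summed level of the 7 genes stood above these sums in every column.

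Markers of other blood cells also differed in transplant against sedentary HSC, where 7.94% of all genes were called higher and 3.71% lower. Counts of called markers were not repeated in the alternative fits. Of 6 megakaryocyte and platelet markers 6 were called higher, with sums of 2121 to 3828 in sedentary and 9019 to 26106 in transplant HSC and none at 0. Of 6 listed monocyte and macrophage markers 4 were called higher, with sums of 16253 to 19492 and 28733 to 32875, and C1qb was at 0 in some columns. Mast cell and basophil markers were called higher in 3 of 5, with sums of 1283 to 2590 and 4123 to 7434. Erythroid markers gave 0 calls of 6, with sums of 166 to 207 and 243 to 533, and Car1 was at 0 in some columns. The 2 listed B cell markers summed to 182 to 253 and 99.7 to 152 with 0 called, the 1 listed T cell marker, Lck, was called lower, and 3 mammary epithelial markers summed to 171 to 175 and 41.8 to 115 with 0 called. Among the HSC markers Slamf1 was called higher, and Hlf, Hoxa9 and Mecom, factors of stem cells and early progenitors, were called lower, with log2 fold changes of 1.72, -1.13, -1.71 and -1.23. The part of other cell types in the rise of the 7 genes was not tested.

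**Figure D4:**
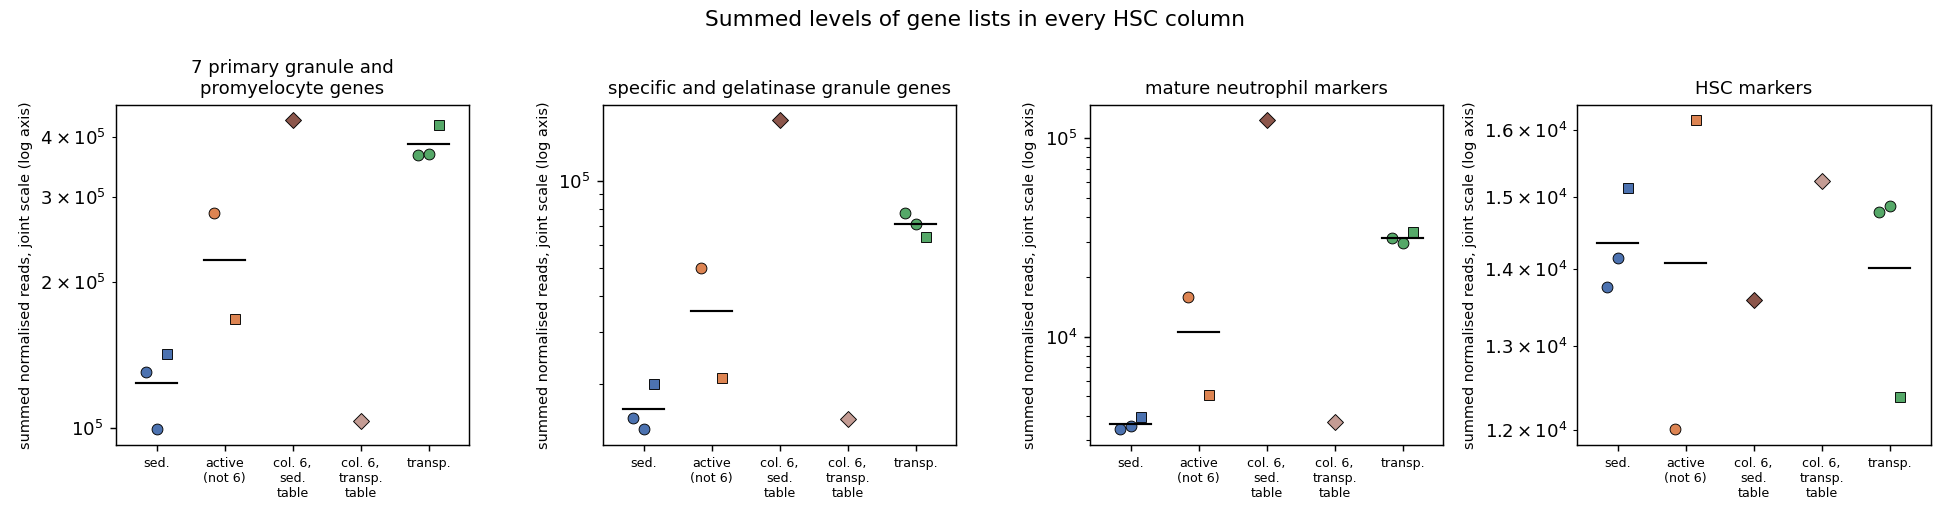
Summed normalised reads on the joint scale (log axis, its range set per panel) of the 7 genes, of specific and gelatinase granule genes, of mature neutrophil markers and of HSC markers in every HSC column, with circles for replicates 1 and 2, squares for replicate 3, diamonds for the columns numbered 6 and bars for group means. The first 3 panels have transplant above sedentary libraries without overlap, and the HSC marker sums of all groups overlap.

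The genes whose pattern was most like the mean of the 7 were found by Pearson's r over the 8 columns not numbered 6, among 10773 genes with a mean of at least 50 normalised reads. They were Clec4a2 and Mpp1 (r = 0.997 each), Aatk and Ptgr1 (0.996 each), Ly6c2 (0.995), and Trim45, Neu1 and Anxa3 (0.994 each). Anxa3, an annexin of neutrophil granules, was at 3161 ± 392 (SD, n = 3) normalised reads in sedentary, 4437 ± 1171 (SD, n = 2) in active and 7202 ± 318 (SD, n = 3) in transplant HSC. Clec4a2, a C-type lectin receptor of myeloid cells, was at 51.6 ± 18.6, 158 ± 111 and 545 ± 71.1 in the same order. These r are a description over columns that share groups and scaling, with no test.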

How the data were processed

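RNA of 9 HSC samples, extracted with a micro-scale column kit and made into stranded mRNA libraries per the labels' protocols, was deposited as a table for sedentary and active HSC and one for active and transplant HSC. The deposited values are a normalized signal per gene, counts divided by 1 factor per library, and 100% of the values came out as whole reads within 0.02 reads. The authors' deposited tables also give a log2 fold change, a p-value and an adjusted p-value, with sedentary over active turned round here. The build is mm10, per the submitters' processing notes; the labels name DEBrowser, and aligner and counter are not given in the sources used here. Each table held 13513 or 13636 genes, and 21 symbols turned into dates were left out when tables were joined.

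Within a table limma 3.58.1 (R 4.3.3) was applied to log2(value + 1), where 1 or both groups averaged at least 1, with Benjamini-Hochberg adjustment over all genes and a threshold of 0.05. For transplant against sedentary HSC, and for levels, recovered reads were joined by symbol, with median-of-ratios scaling. The 21 exact permutation tests had a smallest adjusted p of 0.14. Alternatives were edgeR 4.0.16, DESeq2 1.42.0, other scalings, filters and pseudocounts, left-out libraries, a replicate block and the other column numbered 6. Levels under other scalings and own columns on the joint scale were added after the data were seen. Same-numbered libraries deviated together in transplant against active HSC (correlations of 0.105, 0.116 and 0.318, all over 0.1), and not throughout in the others. Active replicate 1 also correlated at 0.105 with transplant replicate 2. The fits were tested on simulated data. All 7 genes were named, and from each list up to 5 called genes by smallest p, or else 2. Some list genes are not reported here. Members and lists were chosen with earlier results of these data known. Exon lengths came from GENCODE M21, and promoters from RefSeq.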

Additional observations from a re-analysis of the deposited data

How the results depend on the processing

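Over 19, 19 and 17 alternatives for active against sedentary, transplant against active and transplant against sedentary HSC, the direction of the 7 genes' fold changes was kept in 132 of 133, 133 of 133 and 119 of 119 values. The exception was Serpinb1a in active against sedentary HSC, at -0.025 with the other column numbered 6. DESeq2 on recovered reads called 1 of the 7 genes in active against sedentary and 5 in transplant against active HSC, where limma called 0. In transplant against sedentary HSC, where limma called 7, the count was 0 with the replicate block, 4 with replicates 1 and 2 only, and 1 to 5 when 1 replicate was left out. The same-numbered libraries of that comparison had correlations of -0.113, 0.156 and 0.0493. With 3 libraries per group, these values cannot decide whether the numbers pair the libraries. In transplant against active HSC same-numbered libraries deviated together, but active replicate 1 correlated at 0.105 with transplant replicate 1 and with transplant replicate 2. The numbers thus do not settle a pairing there. The block left 0 of the 7 genes called in that comparison, and it changed no call in active against sedentary HSC either. The counts over all genes ran from 0 to 257, 0 to 1107 and 95 to 3181 in the 3 comparisons. With the same replicate block, transplant against sedentary HSC gave 0 calls among packaging genes, hydrolases, inhibitors and regulators, 5 among other promyelocyte genes and 4 among specific and gelatinase granule genes. The causes were not tested.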
